A study of Mus musculus with 4 samples.

Results

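The genes described here are 9 genes of cartilage formation and tissue mineralization, Sox9, Runx2, Acan, Comp, Chad, Cytl1, Mgp, Enpp1 and Alpl, out of 31053 genes counted in single cells of the mouse aortic arch. All 9 were found among the gene symbols of the count tables. The cells came from 4 libraries of male mice with a floxed Nrf2 gene (Nfe2l2), with C57BL/6-Nfe2l2tm1.1Sred/SbisJ and B6;129-Tg(Cdh5-cre)1Spe/J as the parent lines. In the second line the Cdh5 promoter drives Cre, which removes exon 5 of Nfe2l2, in endothelial cells and also in part of the blood cells. Flox mice (labelled Nrf2Cdh5Lox) and mice labelled Nrf2Cdh5tKO were either fed a standard diet after saline, or given a viral vector and a high-fat diet for 21 weeks from 3 months of age. The arches and main branches, with their perivascular tissue, of 4 mice per standard diet group and 3 mice per high-fat group were pooled, so that each group was 1 library. Diet and vector were given together and cannot be told apart, and whether the flox mice carried Cre is not given in the sources used here. Because no group had a second library, no difference between groups could be tested. All intervals below are 95% counting intervals, which leave out the variation between mice.

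Sox9 and Runx2 are the transcription factors that direct the cartilage and bone lineages. Aggrecan (Acan), cartilage oligomeric matrix protein (Comp) and chondroadherin (Chad) are proteins of the cartilage matrix, and Cytl1 encodes a small secreted protein first known from cartilage and blood progenitors. Mineral deposition in the vessel wall is held back by matrix Gla protein (Mgp) and by pyrophosphate, which Enpp1 makes outside the cell and tissue-nonspecific alkaline phosphatase (Alpl) breaks down.

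The libraries held between 1160 and 8512 barcodes, and 14148 of 15599 barcodes were kept, with a median of 9200.5 to 14152.5 unique molecular identifiers (UMIs, 1 per captured RNA molecule) per cell. Gates on marker genes took 12578 of them, of which 7778 were fibroblasts, 1928 smooth muscle cells, 1540 mononuclear phagocytes, 799 T, NK cells and thymocytes, 195 B cells, 152 endothelial cells and 141 neutrophils. The flox high-fat library was the smallest, with 474 fibroblasts and 70 smooth muscle cells. Nfe2l2 itself was at 191 CPM (UMIs per 1000000 UMIs) in the endothelial cells of the flox standard diet library, 370 in the tKO-labelled standard diet library, 178 in the flox high-fat library and 329 in the tKO-labelled high-fat library. It was thus not lower under the tKO label, and since the counts do not show whether a molecule holds the deleted exon, they do not check that label. Between libraries 30 barcodes were shared. Some clusters came almost wholly from 1 library: cluster 12, led by Col8a1 and Meox1, made up 13.7% of the tKO-labelled standard diet cells and at most 0.279% of any other library, and clusters 21, 22 and 15 made up at most 0.202% of any library but the flox standard diet library. Cluster 15 was led by Nppa and Tnnt2, genes of heart muscle, and most of its cells passed the smooth muscle gate.

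Mgp and Chad stood at the ends of the range of detection among the 9 genes. Mgp gave 932037 UMIs and was seen in 93.9% of kept cells, Sox9 gave 9037 UMIs in 24.3%, and Comp and Cytl1 gave 17642 and 19957 UMIs in 15.7% and 11.8% of cells. Enpp1 (2219 UMIs), Alpl (1344), Runx2 (615) and Acan (381) were sparse, and Chad gave 62 UMIs in 22 cells. Levels are given as UMIs of a gene per 1000000 UMIs of the same cells (CPM), without division by gene length, because the method counts the 3′ end of each molecule once.

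Sox9, on chromosome 11 (112782224 to 112787760, plus strand, GRCm38), was a gene of fibroblasts and smooth muscle cells. In fibroblasts its level was 73.5 CPM in the flox standard diet library, 76.9 in the tKO-labelled standard diet library, 63.6 in the flox high-fat library and 58.2 in the tKO-labelled high-fat library. In smooth muscle cells it was 40.1, 27.7, 61.4 and 54.8 in the same order. Fibroblasts were therefore above smooth muscle cells in both standard diet libraries (log2 ratio of smooth muscle over fibroblast -0.87 and -1.47), whereas in the high-fat libraries the ratio was -0.05 (-0.52 to 0.39) and -0.09 (-0.34 to 0.15). Endothelial cells gave no Sox9 UMI in any library, which allows up to 8.94 to 19.7 CPM, and T cells gave at most 3.74 CPM, a level that free RNA in the droplets could also give.

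Runx2, on chromosome 17 (44495987 to 44814797, minus strand), was highest in neutrophils, with 43.4, 24.6, 32.6 and 37.2 CPM from 18, 3, 8 and 2 UMIs. Fibroblasts held 3.01, 2.57, 2.11 and 4.08 CPM, and smooth muscle cells 0.705, 5.54, 1.31 and 1.29. The smooth muscle value of the tKO-labelled standard diet library rested on 30 UMIs, of which 33.3% came from 1 cell. T, NK cells and thymocytes ranged from 2.50 to 18.8 CPM, with counting intervals above those of fibroblasts in 3 libraries, and phagocytes from 3.46 to 15.5, with an interval above that of fibroblasts in the flox high-fat library alone. Among the clusters, Runx2 was highest in cluster 25 of cytotoxic lymphocyte genes (led by Ccl5 and Gzma) at 42.2 CPM and in the neutrophil cluster 24 at 34.2.

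Acan, on chromosome 7 (79053483 to 79115099, plus strand), was a smooth muscle transcript in this tissue. Of its 381 UMIs 73.2% lay in smooth muscle cells and 8 UMIs lay in fibroblasts. The smooth muscle level was 7.86, 15.5, 20.9 and 10.95 CPM in the flox standard, tKO-labelled standard, flox high-fat and tKO-labelled high-fat libraries, against at most 0.151 in fibroblasts. Between 5.99% and 10.2% of smooth muscle cells held an Acan UMI in each library, at full depth. Comp, on chromosome 8 (70373558 to 70382066, plus strand), showed the opposite arrangement. Its fibroblast level was 159, 123, 169 and 254 CPM, while smooth muscle cells held 10.1, 14.2, 1.31 and 13.9. T cells, which should lack Comp, held 5.62, 2.50, 1.53 and 8.37, so that the smooth muscle value of the flox high-fat library, 1 UMI, was no higher than this background. After every cell was thinned to 2000 UMIs, a Comp UMI was found in 11.6%, 10.2%, 12.7% and 19.03% of fibroblasts and in 1.32%, 0%, 0.68% and 1.75% of T cells. In the tKO-labelled high-fat library the thinned smooth muscle share was 3.64% (1.68% to 6.80%). Its interval lay inside that of T cells there (0.04% to 9.39%), so these shares do not tell them apart.

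Chad, on chromosome 11 (94565047 to 94569127, plus strand), and Cytl1, on chromosome 5 (37735519 to 37739820, plus strand), both gave more of their UMIs in cluster 9, a fibroblast cluster, than in any other (74.2% and 35.9%), and their promoters are shown for that reason. These are the 250 bases before the start site as RefSeq gives it on GRCm38.p6, read 5′ to 3′ on the strand of the gene. Capitals mark every match, on either strand, to TATAAA (the TATA box core), TGTGGT (the RUNX core), AACAAT (a SOX core) or GGGCGG (the GC box), which were found in 12.4%, 14.0%, 9.42% and 32.7% of 32851 mouse promoters of that length.
Chad, chr11:94564797-94565046, + strand: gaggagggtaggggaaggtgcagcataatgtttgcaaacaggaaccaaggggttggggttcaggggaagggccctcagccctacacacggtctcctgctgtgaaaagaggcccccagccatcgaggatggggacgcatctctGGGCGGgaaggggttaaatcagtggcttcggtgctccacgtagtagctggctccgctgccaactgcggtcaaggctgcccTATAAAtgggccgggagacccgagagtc
Cytl1, chr5:37735269-37735518, + strand: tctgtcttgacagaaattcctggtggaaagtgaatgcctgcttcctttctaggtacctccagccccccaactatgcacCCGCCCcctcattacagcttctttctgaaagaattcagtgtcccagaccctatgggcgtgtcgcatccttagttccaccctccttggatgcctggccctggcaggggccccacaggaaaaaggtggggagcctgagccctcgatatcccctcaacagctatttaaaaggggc
The Chad window held TATAAA with its first base 28 bases before the start and GGGCGG at 108 bases, and the Cytl1 window held GGGCGG on the other strand at 172 bases. Neither window held the RUNX or SOX core in these letters, which says nothing of the factors themselves.

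Cluster 9 was led by Cytl1 and Adamtsl2, and its Chad UMIs came from 6 of 715 cells. A further 16.1% lay in cluster 20, led by the gamma delta T cell genes Trdc and Trdv4, as 10 UMIs in 10 cells. A single cell held 16 of all Chad UMIs, so Chad supports no comparison between libraries.

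Cytl1 had its highest level in endothelial cells, although 80.3% of its UMIs lay in the more numerous fibroblasts and 8.51% in endothelial cells. Of all its UMIs 25.4% lay in cluster 4 and 11.6% in the endothelial cluster 28. Endothelial cells held 2062, 2198, 1299 and 1468 CPM, from 67, 39, 26 and 20 cells, and fibroblasts held 204, 77.5, 183 and 164. In smooth muscle cells the level was 4.01, 2.21, 5.22 and 11.9, against 5.62, 1.79, 2.30 and 4.18 in T cells, which should lack it. In CPM, smooth muscle cells were thus near the T cell level in both standard diet libraries, and the flox high-fat value, from 4 UMIs, cannot be told from it. Smooth muscle cells were deeper, with medians of 15636.5 and 15511 UMIs on the standard diet against 6493 and 6960.5 in T cells. The part of free RNA in these values was not tested. The 2 endothelial clusters differed: cluster 28, led by Ptprb, Pecam1 and Vwf, held 2892 CPM with a UMI in 87.5% of its cells, whereas cluster 26, led by the capillary genes Fabp4 and Gpihbp1, held 78.2. Single cells weighed heavily in the smaller groups, since 1 cell gave 27.4% of the endothelial and 18.5% of the fibroblast Cytl1 UMIs of the flox high-fat library, and 1 cell gave 96.7% of the 91 Cytl1 UMIs of its phagocytes.

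Mgp, on chromosome 6 (136872435 to 136875823, minus strand), was abundant in both wall cell types. Fibroblasts held 6170, 7279, 4435 and 4869 CPM and smooth muscle cells 7351, 9419, 6796 and 7791, so smooth muscle was above fibroblasts in all 4 libraries (log2 ratios 0.25, 0.37, 0.62 and 0.68). The spread among cells was wider in fibroblasts. In the flox standard diet library the 10th and 90th percentiles of Mgp per cell were 241 and 17707 CPM in fibroblasts and 1932 and 14211 in smooth muscle cells. Endothelial cells held 2586, 5250, 3127 and 7173 CPM, with 51.4% of the tKO-labelled standard diet value from 1 cell. Their median cell stood lower, at 529, 661, 682 and 4418 CPM, against 1786 to 3911 in fibroblasts and 4323 to 6453 in smooth muscle cells of the 4 libraries. T cells, which should lack Mgp, held 266, 180, 98.0 and 234 CPM, and B cells and phagocytes were of the same order. Free RNA in the droplets could give such levels, but its part in them was not tested.

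Enpp1 and Alpl, whose products act in opposite directions on pyrophosphate, differed in where they were highest. Enpp1, on chromosome 10 (24637914 to 24712159, minus strand), held 7.96, 26.8, 5.43 and 7.87 CPM in fibroblasts and 20.6, 24.2, 19.6 and 29.3 in smooth muscle cells. The smooth muscle level exceeded that of fibroblasts in 3 libraries (log2 ratios 1.37, 1.85 and 1.90), and in the tKO-labelled standard diet library the ratio was -0.15 (-0.43 to 0.12). Alpl, on chromosome 4 (137741733 to 137796384, minus strand), held 8.997, 18.7, 7.54 and 5.45 in fibroblasts and 5.31, 9.78, 0 and 3.22 in smooth muscle cells. Endothelial cells held 35.8, 7.80, 29.7 and 0 of Alpl from 12, 2, 5 and 0 UMIs, and T, NK cells, thymocytes, B cells and neutrophils gave none. Both genes were lower in fibroblasts of the tKO-labelled high-fat library than of the tKO-labelled standard diet library, and the 250 bases before their start sites are given with the same marks as above.
Enpp1, chr10:24712160-24712409, - strand: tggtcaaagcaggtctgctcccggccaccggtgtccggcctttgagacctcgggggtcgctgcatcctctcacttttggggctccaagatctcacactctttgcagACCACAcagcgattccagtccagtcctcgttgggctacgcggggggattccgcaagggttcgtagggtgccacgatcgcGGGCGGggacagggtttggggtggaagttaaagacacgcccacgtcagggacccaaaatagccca
Alpl, chr4:137796385-137796634, - strand: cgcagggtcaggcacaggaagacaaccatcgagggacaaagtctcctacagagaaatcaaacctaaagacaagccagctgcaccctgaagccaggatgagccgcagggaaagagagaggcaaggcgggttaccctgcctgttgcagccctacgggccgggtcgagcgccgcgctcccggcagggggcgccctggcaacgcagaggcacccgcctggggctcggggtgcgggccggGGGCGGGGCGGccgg
The Enpp1 window held TGTGGT on the other strand, with its first base 144 bases before the start, and GGGCGG at 65 bases. The Alpl window, that of the first of 2 start sites in RefSeq, held GGGCGG at 15 and 10 bases, and these 2 matches share 1 base.

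**Figure D1:**
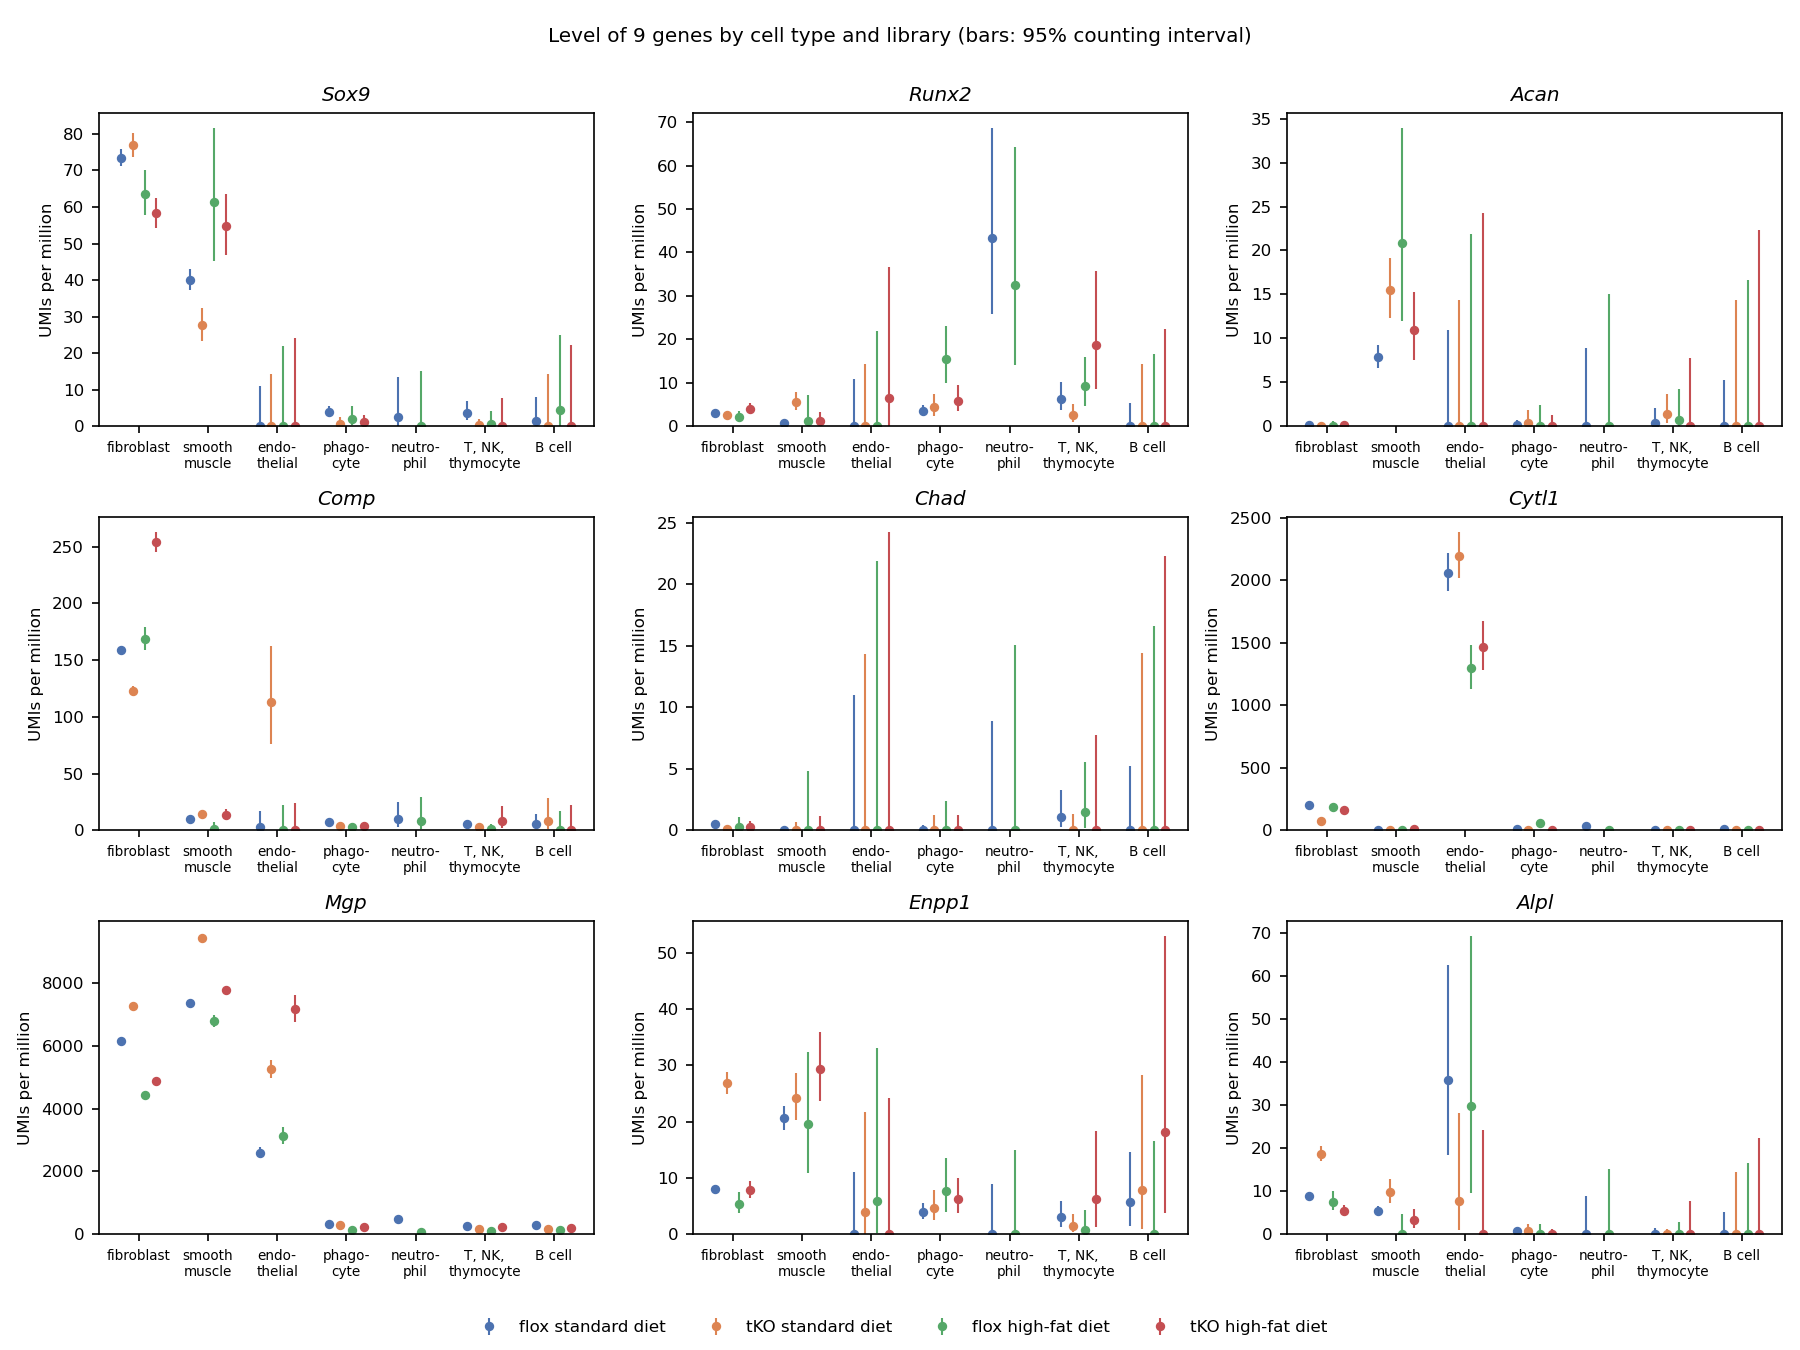
CPM (UMIs per 1000000 UMIs) of each gene (vertical axes) in 7 gated cell types (horizontal axes), 1 point per library in 4 colours with 95% counting intervals; groups of fewer than 19 cells are not drawn. Comp is highest in fibroblasts, Acan in smooth muscle cells, Cytl1 in endothelial cells and Runx2 in neutrophils, and Mgp lies higher in fibroblasts, smooth muscle and endothelial cells than in T cells in every library.

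Across the 32 clusters, computed without these 9 genes among the variable genes, levels ranged more widely between fibroblast clusters than between the libraries. Such cluster levels are a description, since clusters were made from the same cells. Cluster 9 held Mgp at 15056 CPM, Sox9 at 105, Cytl1 at 769, Comp at 161, Enpp1 at 28.8 and Alpl at 28.3. Cluster 12 of the tKO-labelled standard diet library came close to it in Mgp (13527), Sox9 (126) and Alpl (27.4), held Enpp1 at 74.4, which was 23.3% of all Enpp1 UMIs, and was low in Comp. Comp was highest in cluster 4, which also expressed Fmod, with 559 CPM, in cluster 22, led by Wif1 (378), and in cluster 7, led by Fbln7 and Pax1 (309). Sox9 was highest in clusters 22 (257) and 21 (216), which came from the flox standard diet library. Cluster 6, led by Smpd3 and Dact2, held the least Mgp of the larger fibroblast clusters, at 509 CPM with a UMI in 93.3% of its cells. The phagocyte cluster 16, led by Lyz1 and Retnla, held nearly as much, 463 CPM with a UMI in 92.7%. The part of free RNA in these values was not tested.

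**Figure D2:**
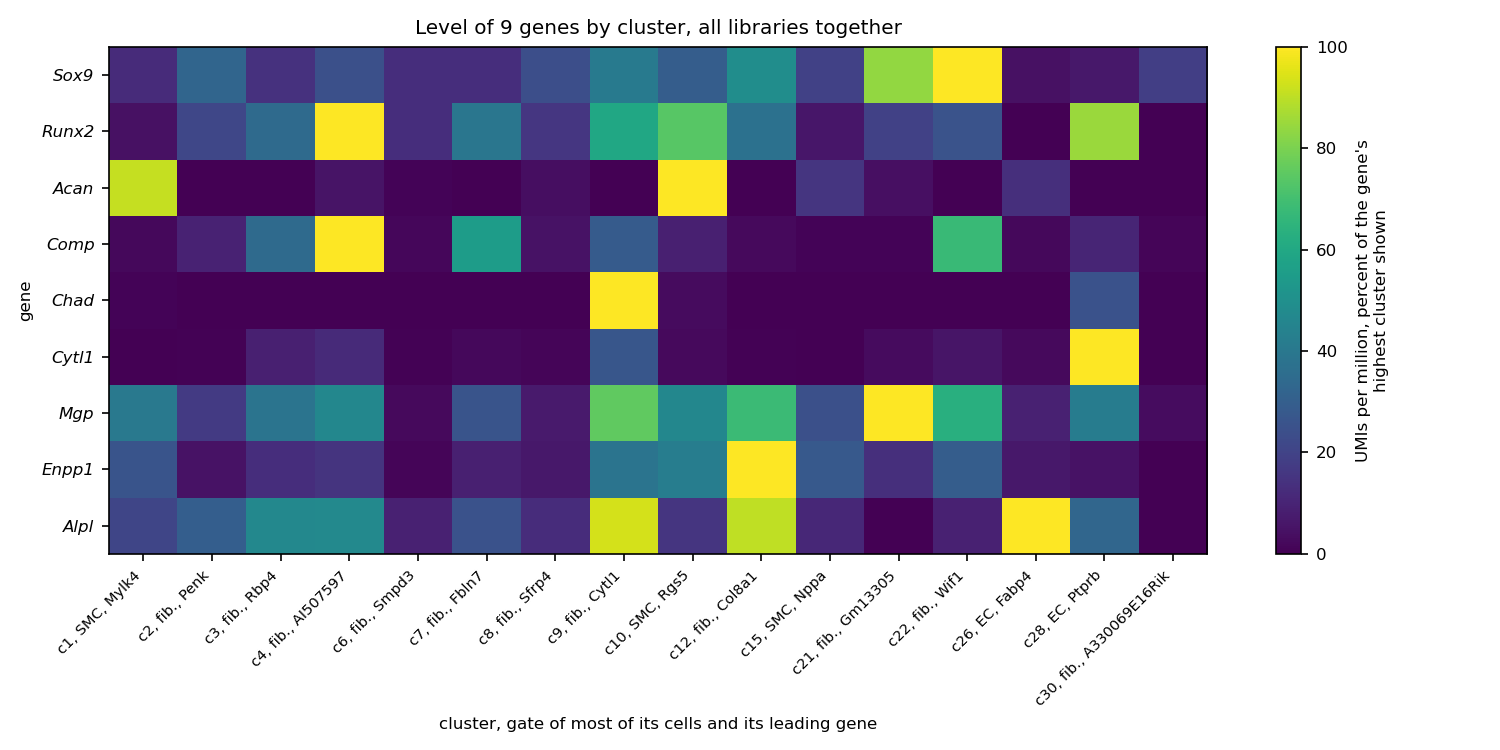
Level of each gene (rows) in each cluster of mostly fibroblast (fib.), smooth muscle (SMC) or endothelial (EC) cells (columns, with their leading gene), as a percent of the gene's highest cluster shown, over all libraries. Cytl1 is brightest in cluster 28, Enpp1 in cluster 12, Comp in cluster 4 and Sox9 in cluster 22.

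The first question was how the levels in fibroblasts differed between the diets. A gene was called when its level differed by at least 1.5-fold and it had at least 50 UMIs over both libraries. In the flox libraries 0 of 7 genes tested were called, where 19.1% of all genes were. Mgp, at 6170 CPM on the standard diet and 4435 on the high-fat diet, gave a log2 ratio of -0.48, and Sox9 gave -0.21, Enpp1 -0.55, Alpl -0.26, Runx2 -0.51, Cytl1 -0.16 and Comp 0.09. Without the cell of each library that held most UMIs of the gene, Alpl (-0.78), Runx2 (-0.70) and Enpp1 (-0.63) were past the fold downward. In the tKO-labelled libraries 3 of 7 genes were higher and 2 lower past the fold, where 11.9% of all genes were called. Comp was higher on the high-fat diet, with 254 against 123 CPM (log2 ratio 1.05, 0.98 to 1.12), as was Cytl1, with 164 against 77.5 (1.08, 0.995 to 1.17). Runx2, from 54 and 67 UMIs, gave 0.67 (0.12 to 1.21). Enpp1 was lower, with 7.87 against 26.8 (-1.77, -2.08 to -1.47), and so was Alpl, with 5.45 against 18.7 (-1.78, -2.15 to -1.42). Mgp gave -0.58, just short of the fold and past it without its top cells (-0.59), and Sox9 -0.40.

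**Figure D3:**
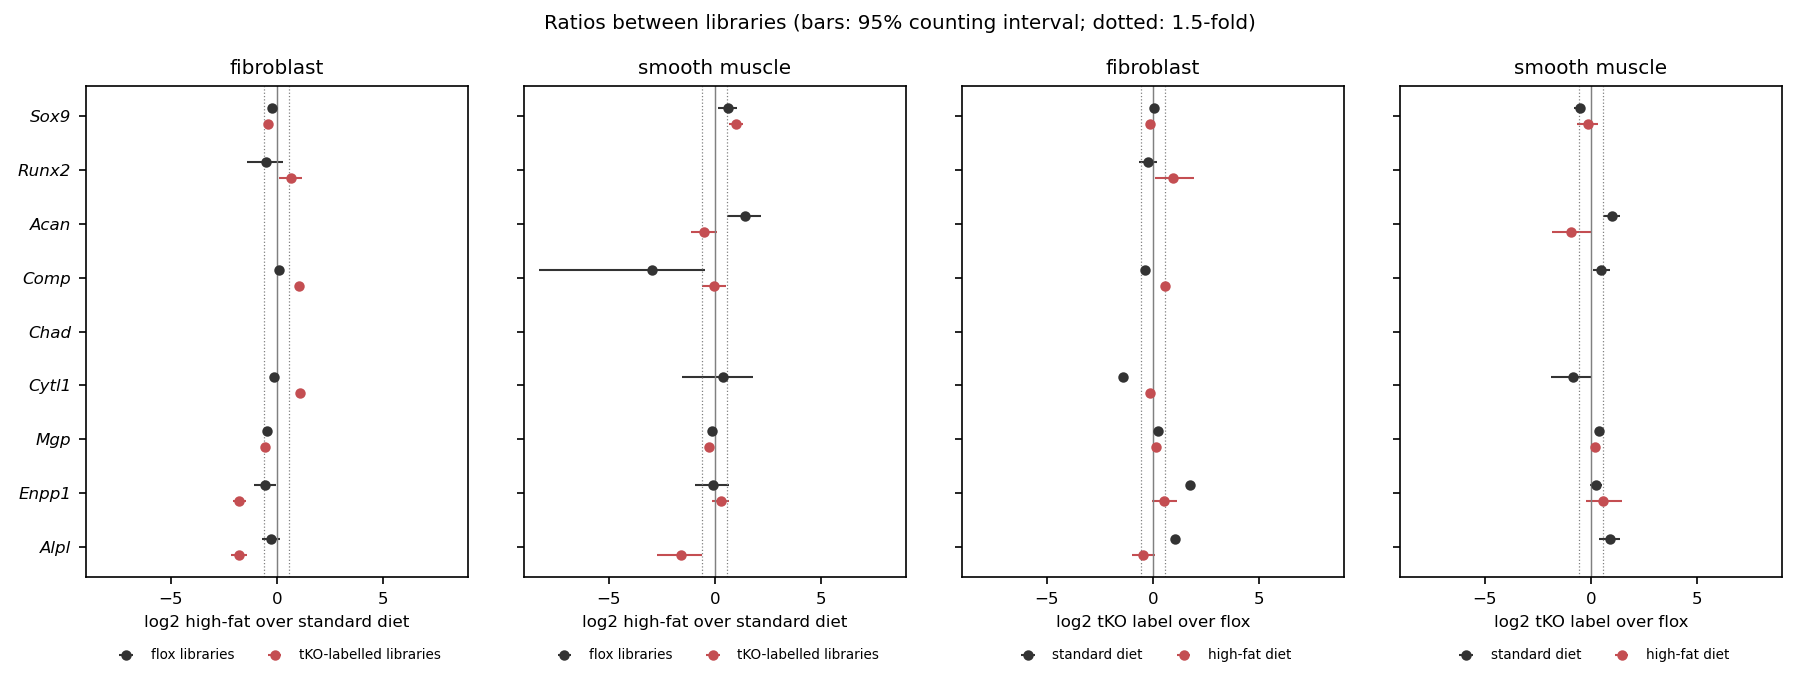
Log2 ratio of each gene (rows) between 2 libraries, with 95% counting intervals, for diet and for the Nrf2 label in fibroblasts and smooth muscle cells; genes with fewer than 50 UMIs over the pair, or 0 in 1 library, are not drawn. In fibroblasts Enpp1 and Alpl lie left of the 1.5-fold line for diet in the tKO-labelled libraries and Comp, Cytl1 and Runx2 right of it, and no gene is past it in the flox libraries.

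The makeup of the fibroblasts also differed between the diets. Comp was high in clusters 4 and 7. Cluster 7 held 7.28% of flox fibroblasts on the standard diet and 28.3% on the high-fat diet, and cluster 4 held 13.7% and 13.1%. In the tKO-labelled libraries cluster 7 held 12.02% and 18.6%, and cluster 4 held 10.7% and 18.2%. Cluster 9, high in Mgp, Cytl1 and Alpl, held 10.2% of flox fibroblasts on the standard diet and 4.22% on the high-fat diet. The tKO-labelled shares of cluster 9 were 10.1% and 5.21%. Cluster 12 held 24.6% of the tKO-labelled standard diet fibroblasts. Cluster 9 was not among the clusters of 1 library, so leaving those out keeps it. The part of makeup in the ratios was not tested beyond leaving out clusters of 1 library and reading single clusters. Without the clusters that came from 1 library, the Enpp1 ratio for diet in the tKO-labelled libraries was -0.48 in place of -1.77 and no longer past the fold, while Alpl was -1.54, Comp 0.69 and Cytl1 0.68. The Mgp ratios were then -0.28 in the flox and -0.13 in the tKO-labelled libraries, and those of Sox9 were 0.05 and -0.07. Within single clusters the ratios of a gene differed in sign and size. Mgp was slightly higher on the high-fat diet in cluster 4 (0.19 in flox, 0.10 in tKO-labelled) and cluster 7 (0.07 and 0.20). The ratios were -0.61 and -0.05 in cluster 2 and -0.55 in cluster 9 of the tKO-labelled libraries, and the pairs differed in sign in cluster 3 (0.30 and -0.11), cluster 6 (-0.41 and 0.21) and cluster 8 (0.13 and -0.49). Without the cell with most Mgp UMIs in each library, the values of cluster 3 were 0.11 and -0.06. Sox9 was higher on the high-fat diet in cluster 4, at 1.02 (0.71 to 1.32) in flox and 0.49 (0.16 to 0.81) in tKO-labelled libraries. In cluster 8 its ratios were 0.18 and 0.48, and in cluster 6 -0.04 and -0.23. The Sox9 pairs differed in sign in cluster 2 (0.38 and -0.14), cluster 3 (-1.50 and 1.35) and cluster 7 (0.37 and -0.02). Cluster 9 of the tKO-labelled libraries gave 0.32.

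Alpl in cluster 4 was at 27.7 CPM on the standard diet and 2.96 on the high-fat diet in the tKO-labelled libraries (-3.23, -4.48 to -2.18), and at -3.54 without the top cells. In the flox libraries 16 of the 28 Alpl UMIs of that cluster on the high-fat diet came from 1 cell. The flox ratio was 1.44 with this cell and 0.33 (-0.68 to 1.21) without the top cells, so that it does not show a rise. In cluster 7 Alpl was lower on the high-fat diet in both pairs. The ratios were -1.38 (-2.93 to -0.10) in flox, from 6 and 32 UMIs, and -1.35 (-2.49 to -0.33) in tKO-labelled libraries, from 11 and 32. Cluster 9 of the tKO-labelled libraries gave -1.07 (-1.89 to -0.33), from 17 and 131 UMIs. In clusters 2, 3, 6 and 8 the Alpl intervals held 0 in both pairs. Cytl1 in the flox libraries was higher on the high-fat diet in cluster 4 (0.83, and 0.31 without the top cells) and lower in cluster 2 (-1.92), cluster 3 (-1.66), cluster 6 (-4.85) and cluster 8 (-1.74), from 2, 14, 1 and 11 UMIs on the high-fat diet. The tKO-labelled libraries gave 0.86 in cluster 4 and 3.58, 1.72, 5.48 and 1.54 in those 4 clusters, where 1 cell held 77.0%, 9.80%, 64.2% and 69.3% of the high-fat UMIs, and without the top cells 1.64, 3.42, 4.42 and 1.503. Cluster 9 gave 0.88 in the tKO-labelled libraries, and cluster 7 gave 0.12 in flox and 0.03 in tKO-labelled libraries. For Comp the ratio in the tKO-labelled libraries was above 0 in cluster 2 (0.80), cluster 3 (0.98), cluster 4 (0.42), cluster 6 (3.70), cluster 7 (0.13), cluster 8 (1.10) and cluster 9 (1.02). In flox libraries it was above 0 in clusters 2 (1.06), 7 (0.22) and 8 (2.55) and below it in clusters 3 (-1.56) and 4 (-0.75), and 1 cell held 8 of the 10 high-fat UMIs of cluster 3. Cluster 6 of the flox libraries gave 0 Comp UMIs on the high-fat diet and 49 on the standard diet, so no ratio is given for it.

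**Figure D4:**
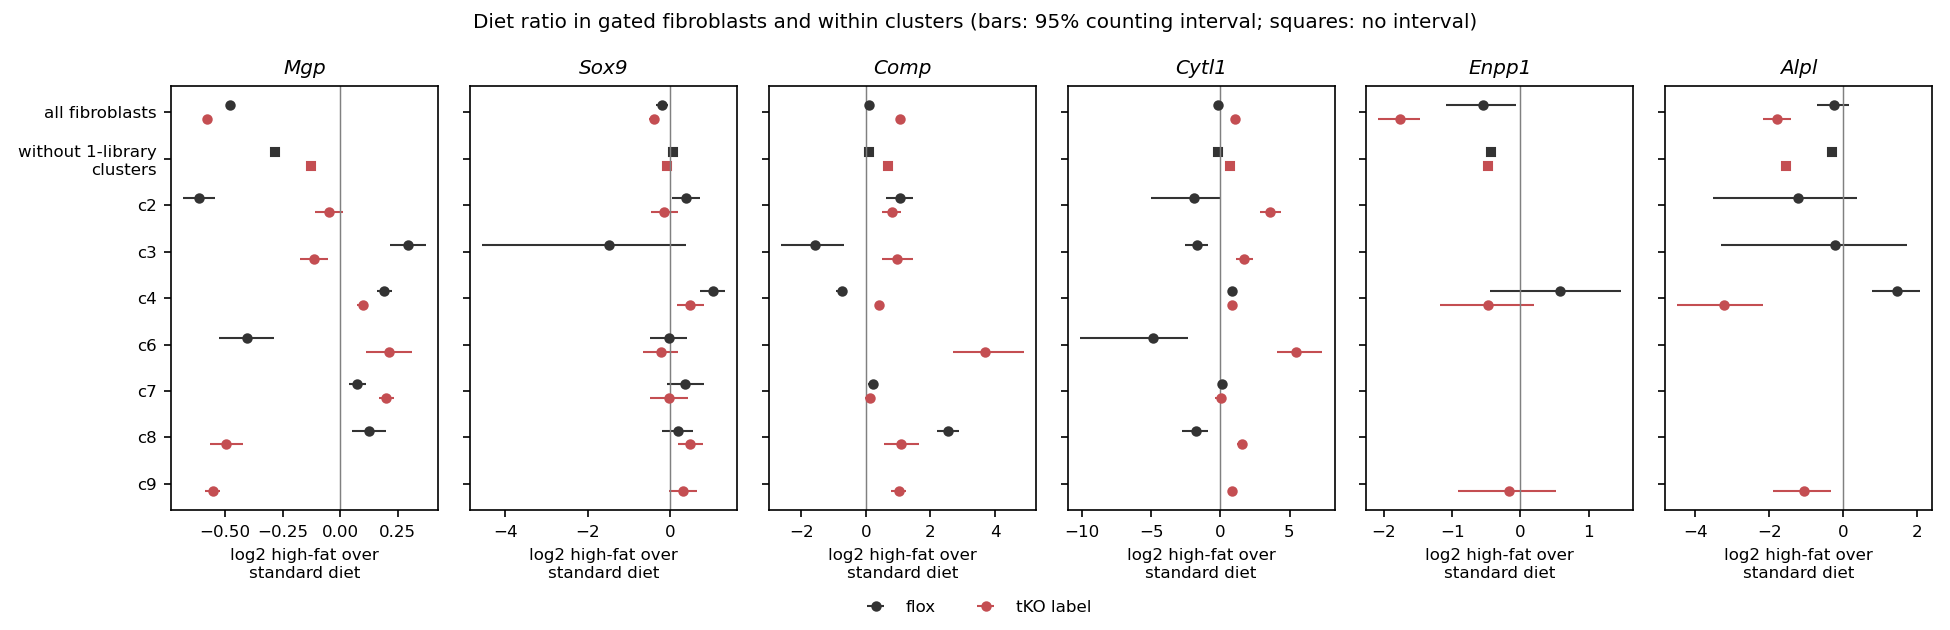
Log2 ratio of high-fat over standard diet (horizontal axes) for 6 genes in all gated fibroblasts, without the clusters of 1 library (squares, no interval) and within each cluster with at least 30 cells in both libraries and 50 UMIs, with 95% counting intervals, in flox (dark) and tKO-labelled (red) libraries. The Enpp1 ratio of the tKO-labelled libraries moves toward 0 without the clusters of 1 library, and the Alpl ratio of cluster 4 is -3.23 there. The flox value of that cluster, 1.44, is drawn with a cell that held 16 of 28 UMIs and is 0.33 (-0.68 to 1.21) without the top cells.

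In smooth muscle cells Sox9 was past the fold upward for diet in both pairs of libraries. In the flox libraries 2 of 7 genes tested were higher and 1 lower past the fold, where 30% of all genes were called. Sox9 was 61.4 CPM on the high-fat diet against 40.1 (log2 ratio 0.62, 0.16 to 1.04), from 47 UMIs in 17 of 70 cells. Acan was 20.9 against 7.86 (1.41, 0.57 to 2.16), from 16 UMIs in 6 cells with 37.5% in 1 of them. Comp was lower, at 1 UMI against 187 (-2.96, -8.27 to -0.46), and the high-fat value was no higher than the background of T cells given above. Alpl was at 0 UMIs in the flox high-fat library and 98 in the flox standard diet library, at least 1.36-fold lower when the 0 was set to 3 counts. In the tKO-labelled libraries 1 of 6 genes was higher and 1 lower, where 11.2% of all genes were called. Sox9 was 54.8 against 27.7 (0.98, 0.66 to 1.31) and Alpl 3.22 against 9.78 (-1.60, -2.74 to -0.61), while Acan gave -0.50 (-1.12 to 0.09). The share of cells with a Sox9 UMI, thinned to 2000 UMIs per cell, was 5.12% and 5.85% on the standard diet and 15.2% and 10.1% on the high-fat diet in flox and tKO-labelled libraries. Mgp ratios were -0.11 and -0.27 and Enpp1 ratios -0.07 and 0.28, all short of the fold. Cytl1, from 37 and 12 UMIs in the tKO-labelled libraries, fell just short of the 50 UMIs needed, and Runx2 and Chad were below it in both pairs. The flox ratio of Sox9 was no longer past the fold with at most 10% mitochondrial UMIs (0.27), with cell types from clusters (0.56), with the median of all genes set to 0 (0.50), without the top cells (0.46) or over nuclear genes without ribosomal protein genes (0.58).

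Clusters 1 and 10 held most gated smooth muscle cells, and their proportions differed between libraries beside the Sox9 values. Cluster 1, led by the contractile genes Mylk4 and Myh11, held 72.5%, 72.8%, 64.3% and 62.0% of the smooth muscle cells, and cluster 10, led by Rgs5 and Grem1, held 9.67%, 21.4%, 30.0% and 26.8%. Cluster 15, led by the heart muscle genes Nppa and Tnnt2, held a further 17.0% of the smooth muscle cells of the flox standard diet library. Sox9 in cluster 1 was 36.4, 17.6, 24.6 and 28.4 CPM, which gave a diet ratio of -0.56 (-1.45 to 0.20) in flox and 0.69 (0.20 to 1.18) in tKO-labelled libraries. In cluster 10 it was 78.0, 85.0, 172 and 164, from 87, 62, 32 and 102 UMIs, so that both high-fat libraries stood above both standard diet libraries, with 21 cells in the flox high-fat library. Of the 30 Runx2 UMIs in smooth muscle cells of the tKO-labelled standard diet library, 17 lay in cluster 10. Of the 567 cells of cluster 10, 117 were called doublets. Over all gated smooth muscle cells the Sox9 diet ratios without doublets were 0.62 and 0.81, which are not values of cluster 10 alone.

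The second question was how the libraries labelled tKO differed from flox libraries on the same diet. In fibroblasts on the standard diet 2 of 7 genes were higher and 1 lower past the fold, where 13.3% of all genes were called. Enpp1 (log2 ratio 1.75, 1.57 to 1.93) and Alpl (1.05, 0.87 to 1.24) were higher and Cytl1 lower (-1.40, -1.47 to -1.33). Without the clusters of 1 library these ratios were 0.57, 0.76 and -1.06, and Enpp1 was no longer past the fold. On the high-fat diet 2 of 7 genes were higher and 0 lower, where 6.62% of all genes were called. They were Runx2 (0.95, 0.08 to 1.92, from 54 and 14 UMIs) and Comp (0.59, 0.49 to 0.69), which was barely past the fold. For smooth muscle on the standard diet Acan (0.98, 0.57 to 1.38) and Alpl (0.88, 0.37 to 1.38) were higher and Cytl1 lower (-0.86, -1.87 to 0.03) among 7 genes, where 13.3% of all genes were called. Within cluster 1 the ratio was 0.37 (-0.12 to 0.84) for Acan and 0.92 (0.39 to 1.45) for Alpl. In cluster 10 Acan gave 1.93 (0.93 to 3.03), from 30 and 12 UMIs. That cluster held 21.4% of the tKO-labelled and 9.67% of the flox smooth muscle cells, and the part of this makeup was not tested. The Cytl1 levels of 4.01 and 2.21 CPM stood beside 5.62 and 1.79 in T cells. The interval of the Cytl1 ratio held 0, and the part of free RNA in it was not tested. On the high-fat diet Acan alone of 4 genes tested was past the fold (-0.93, -1.83 to 0.02), where 15.3% of all genes were called. Acan had exactly the 50 UMIs needed over this pair, 16 of them from the flox high-fat library. With at most 10% mitochondrial UMIs, without doublets or without the top cells it fell below 50 and was not tested (-1.31, -0.95 and -0.51), and Enpp1 was past the fold upward in its place (0.85, 0.61 and 0.81, against 0.58).

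In the few endothelial cells only Cytl1 and Mgp had 50 UMIs over each pair of libraries. The diet ratio of Cytl1 was -0.67 (-0.89 to -0.44) in flox and -0.58 (-0.81 to -0.36) in tKO-labelled libraries, so both high-fat libraries stood below both standard diet libraries. The ratio of Mgp between the labels was 1.02 on the standard diet, where 1 cell held 51.4% of the tKO-labelled UMIs, and 0.25 (0.09 to 0.40) without the top cells. On the high-fat diet it was 1.20, where 1 cell held 42.5% of the flox UMIs, and 1.69 without the top cells, from 20 and 26 cells. Cluster 28, in which Cytl1 was high, made up 0.38%, 0.81%, 1.27% and 0.93% of all cells of the libraries. The other endothelial cluster, 26, made up 0.82%, 1.08%, 1.67% and 0.31%. Mgp was also higher in cluster 28, at 8359 CPM against 1818 in cluster 26. The part of the makeup of the endothelial cells in these ratios was not tested.

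Other genes of these pathways were read from 5 lists, and the shares of all genes past the fold for diet were, as above, 19.1% in flox and 11.9% in tKO-labelled fibroblasts and 30% and 11.2% in smooth muscle cells. Of the cartilage matrix list 25 of 26 genes were among the gene symbols, and its most abundant members were Bgn (1829 CPM in fibroblasts and 2192 in smooth muscle cells) and Ogn (1712 and 1072), both small leucine-rich proteoglycans. In fibroblasts 2 of 17 genes were higher and 7 lower past the fold for diet in the flox libraries, with a median log2 ratio of -0.40 (0.06 over all genes tested), and 2 of 12 were higher and 5 lower in the tKO-labelled ones, with a median of -0.18 (-0.05). Fmod, which binds collagen, was past the fold upward in both pairs (0.999 and 0.66) and the cartilage proteoglycan Epyc downward (-1.28 and -0.61). Fmod was among the leading genes of clusters 4 and 7, whose shares of the fibroblasts differed between the diets as given above. The part of this makeup in the Fmod ratios was not tested. Within smooth muscle cells 2 of 7 were higher and 2 lower in flox and 0 of 6 higher and 2 lower in tKO-labelled libraries, with Matn2 lower in both (-1.80 and -1.32). Of the chondrogenic regulators, led by Zbtb20 (1092 in fibroblasts and 881 in smooth muscle cells) and Foxc1 (62.9 and 104), 0 of 10 were higher and 4 lower in flox fibroblasts and 1 of 9 higher and 3 lower in tKO-labelled ones. Sox6, the partner of Sox9 in chondrocytes (-1.88 and -0.60), the receptor Fgfr3 (-0.90 and -1.70) and the tendon gene Tnmd (-1.40 and -1.18) were lower in both pairs. Among smooth muscle cells 3 of 8 were higher and 1 lower in flox and 1 of 8 higher and 1 lower in tKO-labelled libraries, and the tendon factor Scx was higher in both (1.06 and 0.61).

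Of the osteogenic genes, led by Sparc (4044 in fibroblasts and 1775 in smooth muscle cells) and Postn (117 and 568), 0 of 10 were higher and 2 lower in flox fibroblasts and 3 of 10 higher and 2 lower in tKO-labelled ones. Postn was lower in both (-1.42 and -1.35). For smooth muscle 3 of 8 were higher and 1 lower in flox and 1 of 8 higher and 2 lower in tKO-labelled libraries, with the homeobox gene Msx1 higher (0.77 and 0.88) and Phex lower (-2.50 and -0.59) in both. Of the pyrophosphate, phosphate and mineralization list, led by Anxa5 (745 and 375), Entpd2 in fibroblasts (343) and Entpd1 in smooth muscle cells (168), 1 of 13 was higher and 3 lower in flox fibroblasts and 1 of 13 higher and 2 lower in tKO-labelled ones. Smpd3, a sphingomyelinase needed for skeletal mineralization, was the higher one (1.96 and 1.20), and Enpp2 (-1.21 and -1.45) and the nucleoside transporter Slc29a1 (-0.68 and -0.84) were lower in both. Smpd3 led cluster 6, which held 9.79% of flox fibroblasts on the standard diet and 20.5% on the high-fat diet. The tKO-labelled shares were 11.8% and 13.8%, and the part of this makeup in the Smpd3 ratios was not tested. Within smooth muscle cells 3 of 11 were higher and 2 lower in flox and 1 of 11 higher and 0 lower in tKO-labelled libraries. Of the calcification inhibitors and BMP genes, led by Id3 (1539 and 1074) and Gas6 (586 and 330), 4 of 20 were higher and 5 lower in flox fibroblasts and 3 of 17 higher and 1 lower in tKO-labelled ones. The BMP antagonist Chrdl1 (1.30 and 0.64) was higher in both. Among smooth muscle cells 3 of 14 were higher and 1 lower in flox and 6 of 12 higher and 1 lower in tKO-labelled libraries, with Chrd (0.95 and 0.66) and Chrdl1 (1.83 and 3.01) higher in both. Over all genes tested in both diet pairs, 168 of 12102 were higher and 261 lower past the fold in both in fibroblasts, and 122 and 114 of 9296 in smooth muscle cells.

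Over 22 profiles of a cell type in a library, which share libraries and depth, the genes most like each member were named by Pearson's r of log2 levels. Only 2 of these profiles were of endothelial cells and 1 of neutrophils, the types in which Cytl1 and Runx2 were highest. Mgp followed Bgn (0.993) and Igfbp7 (0.989), Sox9 followed Echdc2 (0.985), Maob (0.985) and Wasf3 (0.984), and Acan followed Casq1 (0.984), Rbm24 (0.979) and Wnt16 (0.977). Comp followed Ism1 (0.950), Aif1l (0.947) and Fgf18 (0.943), and Cytl1 followed the endothelial genes Tek (0.973), Ecscr (0.967) and Fgd5 (0.967). Alpl was closest to Pcdhb14 (0.937), Inhbb (0.928) and Vwa1 (0.925), Enpp1 to Heyl (0.899), Bdnf (0.887) and Clybl (0.880), and Runx2 to Slfn1 (0.880), Glrx (0.863) and Mxd1 (0.855). Among the members themselves Sox9 and Mgp were the closest pair (0.81), and Enpp1 and Alpl had 0.21.

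At the level of single cells, Sox9 was seen more often in cells with an Enpp1 UMI. In fibroblasts 48.4%, 58.0%, 46.7% and 59.6% of cells with an Enpp1 UMI also held Sox9, against 32.5%, 39.8%, 30.4% and 25.7% of cells without, in the order of libraries used above. Cells with an Enpp1 UMI were deeper, with a median of 15382.5 against 12468 UMIs over all libraries. Fibroblast clusters also differed in both genes, and the part of depth and cluster in this difference was not tested. For smooth muscle, over all libraries and at full depth, 29.6% of the 162 cells with an Acan UMI held Sox9, against 19.3% of those without. The part of depth, library and cluster in this difference was not tested.

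Cells with several chondrocyte markers were rare. Of 10 chondrocyte markers 9 were among the gene symbols, and 7 of 14148 cells held 3 or more of them, all in the flox standard diet library. Col2a1, the main cartilage collagen, gave 11 UMIs in 5 cells and Matn1 gave 3 UMIs, while Cnmd gave 502 UMIs in 54 cells.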

How the data were processed

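The authors mapped the reads of 10x Chromium 3′ v3.1 libraries of sorted live cells to mm10 with Cell Ranger 6.1.2 and deposited raw UMI counts per gene and cell barcode, which were used as they stand. After the methods of the study, a barcode stayed in when it had between 200 and 6000 genes and no more than 15% of its UMIs from mitochondrial genes. Doublets were not removed otherwise; Scrublet (scanpy 1.11.5) called 0.98% to 2.41% of the cells of a library, and leaving these out was an alternative. A cell took the type of which it held at least 3 markers, with a margin of 25 percentage points over the next list; 1570 cells took none and 1425 lay near the margin. Each gene's UMIs were added up by cell type and library and divided by all UMIs of those cells (CPM). Levels have exact Poisson intervals, and ratios intervals from the binomial split of the UMIs; they cover counting error only. Where 1 library was at 0, the ratio was taken against 3 counts, a rule adopted after values had been seen. Shares of cells with a UMI are at full depth unless the text says that cells were thinned to 2000 UMIs. Thinning left out the cells below that depth, 467 fibroblasts and 82 smooth muscle cells among them. Clusters (32) were made with Leiden at resolution 1 on 2000 variable genes, 30 components and 20 neighbours. Gene positions are those of GENCODE, promoters those of RefSeq, found for 6 of 9 genes. All members, the 5 gene lists and the markers were chosen with earlier results of these data known. Of each list, the 2 most abundant genes per cell type and those past 1.5-fold the same way in both diet pairs were named, and for each member with at least 200 UMIs the 3 genes (of those with at least 500) with the best correlation of log2(CPM + 10) over profiles of at least 30 cells. Other settings are listed at the end. Some items that these rules name are not reported here.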

Additional observations from a re-analysis of the deposited data

Results flagged for a closer look

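The diet ratio of Cytl1 in fibroblasts had opposite signs in the flox libraries (log2 ratio -0.16) and the tKO-labelled libraries (1.08), and the difference between them was not tested. The ratio of Comp in fibroblasts between the tKO-labelled and flox libraries was -0.37 on the standard diet and 0.59 on the high-fat diet, and this difference was not tested either; without the clusters of 1 library the first value was -0.01. In the 1570 cells that no gate took, which enter no comparison above, Chad was at 1.15 CPM, from 21 UMIs in 10 cells.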

How the results depend on the processing

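No paired analysis was possible because each group was 1 library. Of 51 log2 ratios, between 34 and 51 stayed inside their counting interval under each of 10 other settings, and 42 of 50 without the top cell, the one with most UMIs of the gene, of each library. Among ratios whose interval did not hold 0, the sign changed for Cytl1 between the labels on the high-fat diet in fibroblasts (-0.16, against 0.0120 with cell types from clusters and 0.0834 as a mean over cells and 0.0140 without the top cells), for Mgp in smooth muscle cells as a mean over cells (diet in flox 0.00545 against -0.11, label on the high-fat diet -0.15 against 0.20), and, without the clusters of 1 library, for Sox9 (diet in flox fibroblasts 0.0531) and Mgp (label on the standard diet in fibroblasts -0.0198). The cause was not tested. The count of members past the fold moved by over 1.5 times as follows. For the label on the high-fat diet in fibroblasts, 2 became 1 with at most 10% mitochondrial UMIs, the stricter gate, cell types from clusters or a mean over cells, and 0 at 2-fold. For diet in flox fibroblasts, 0 became 1 with no upper limit on genes, a mean over cells, the median set to 0 or at least 20 UMIs, and 3 without the top cells. For the label on the high-fat diet in smooth muscle cells, 1 became 2 with no upper limit on genes, the stricter gate, cell types from clusters, nuclear genes without ribosomal protein genes or the median set to 0, became 3 with at least 20 UMIs, and 0 as a mean over cells or at 2-fold. For diet in tKO-labelled smooth muscle cells, 2 became 4 with cell types from clusters or at least 20 UMIs and 1 at 2-fold, and for the label on the standard diet 3 became 0 at 2-fold. The other counts moved by 1: for diet in tKO-labelled fibroblasts 5 became 4 or 6, for diet in flox smooth muscle cells 3 became 2 or 4 (4 with a fraction of a count in place of the 3-count rule), for diet in tKO-labelled smooth muscle cells 2 became 3, for the label 2 became 3 in high-fat fibroblasts, and on the standard diet 3 became 2 or 4 in fibroblasts and 4 in smooth muscle cells. Levels over all libraries moved by over 1.5 times, relative to the main value, with cell types from clusters for Cytl1 (3.89), Comp (1.71) and Chad (1.59) in smooth muscle cells and Acan in fibroblasts (2.92), with the stricter gate for fibroblast Acan (0.291) and Chad (0.598), and without clusters of 1 library for fibroblast Enpp1 (0.629). The settings without clusters of 1 library, without the top cells and with the fraction of a count were chosen after seeing the data. The 70 smooth muscle cells of the flox high-fat library limit every smooth muscle ratio that uses it.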
